A study of Homo sapiens with 16 samples.

Results

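The genes described here are 9 receptors of the TNF receptor superfamily, FAS, TNFRSF10A, TNFRSF10B, TNFRSF10C, TNFRSF10D, EDA2R, TNFRSF1A, TNFRSF21 and TNFRSF12A, out of 28443 genes counted in both experiments of the study. They were taken by name, and all 9 passed the filter on low counts. Their transcripts were counted after poly-A RNA-seq of U2OS, a human osteosarcoma line that keeps wild-type p53. The 4 groups were MDM2 W329G cells under 5-FU, MDM2 W329G cells under DMSO, wild-type (WT) cells under 5-FU and WT cells under DMSO. W329G is a single amino acid change introduced by CRISPR/Cas9 into MDM2, the ubiquitin ligase that restrains p53, and the WT cells are their isogenic counterparts. 5-FU (5-fluorouracil), a pyrimidine analog that disturbs nucleotide synthesis and ribosomal RNA processing, was given at 50 µM, and DMSO is its solvent; both were applied for 24 h. Each genotype was represented by 2 lines, numbered cells 1 and cells 2, and the whole design was run in 2 experiments sequenced by different vendors, giving 16 libraries, 4 per group. Within a group, replicates 1 and 2 come from experiment 1 (cells 1, then cells 2), while experiment 2 gave replicates 3 and 4 in the same way. Whether a line is a single clone is not stated.

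FAS (ENSG00000026103) lies on chromosome 10 from 88990582 to 89015785 on the plus strand, and EDA2R (ENSG00000131080) on chromosome X from 66595637 to 66639298 on the minus strand, in the GRCh38 coordinates of the experiment 1 tables. TNFRSF10B (ENSG00000120889), TNFRSF10C (ENSG00000173535), TNFRSF10D (ENSG00000173530) and TNFRSF10A (ENSG00000104689) lie in a row on chromosome 8 between 23020133 and 23225126. TNFRSF1A (ENSG00000067182) lies on chromosome 12 from 6328757 to 6342114, TNFRSF21 (ENSG00000146072) on chromosome 6 from 47231532 to 47309905 and TNFRSF12A (ENSG00000006327) on chromosome 16 from 3018445 to 3022383.

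Receptors of this family sit at the cell surface and answer trimeric ligands of the TNF family. FAS and the TRAIL receptors TNFRSF10A and TNFRSF10B carry an intracellular death domain that recruits FADD and caspase-8 when ligand binds, which starts the extrinsic pathway of apoptosis. TNFRSF10C and TNFRSF10D bind TRAIL without a working death domain and are called decoys. EDA2R binds the A2 form of ectodysplasin, TNFRSF1A is the main receptor for TNF, TNFRSF21, known as DR6, is another receptor with a death domain, and TNFRSF12A (Fn14) binds TWEAK and signals through TRAF proteins without a death domain. FAS, TNFRSF10B and EDA2R are known from earlier work as genes that p53 activates directly, and a p53 response element lies in the first intron of FAS.

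The start regions of FAS and EDA2R are shown because these genes gave the largest responses in WT cells. Each covers 250 bases before and 50 after a transcription start listed in RefSeq (GRCh38.p14). Capitals mark a match to the 10-base p53 half-site consensus, which was searched on both strands.
FAS, chr10:88990548-88990847, plus strand: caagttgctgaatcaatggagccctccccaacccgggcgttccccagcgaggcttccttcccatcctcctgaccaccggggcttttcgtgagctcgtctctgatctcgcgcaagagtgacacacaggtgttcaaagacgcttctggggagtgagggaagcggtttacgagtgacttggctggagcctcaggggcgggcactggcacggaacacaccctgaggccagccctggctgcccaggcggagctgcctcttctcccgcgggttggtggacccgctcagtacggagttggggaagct
FAS, chr10:88991181-88991480, plus strand: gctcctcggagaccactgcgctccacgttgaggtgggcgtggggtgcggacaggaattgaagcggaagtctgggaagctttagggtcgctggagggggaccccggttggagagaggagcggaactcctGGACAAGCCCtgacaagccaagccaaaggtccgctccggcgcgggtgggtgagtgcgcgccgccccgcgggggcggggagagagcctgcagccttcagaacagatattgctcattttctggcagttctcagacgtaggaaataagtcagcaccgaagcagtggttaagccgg
EDA2R, chrX:66639220-66639519, minus strand: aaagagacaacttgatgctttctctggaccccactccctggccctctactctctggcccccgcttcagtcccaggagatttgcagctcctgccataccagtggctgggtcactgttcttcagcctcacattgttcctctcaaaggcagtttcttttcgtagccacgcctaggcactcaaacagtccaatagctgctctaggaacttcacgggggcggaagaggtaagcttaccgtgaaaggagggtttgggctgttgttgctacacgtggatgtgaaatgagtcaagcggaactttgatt

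Of 7 such windows found for 4 of the 9 genes (3 for FAS, 2 for EDA2R and 1 each for TNFRSF1A and TNFRSF21), 1 held a half-site. That is the second window above, in which the match spans 88991309 to 88991318, at -122 relative to the listed start. It lies in no exon of the basic GENCODE 29 transcripts of FAS and within the span of 4 of them. Among 34943 windows of this length over all genes, 6.64% held a half-site, so a match in 1 window is a description of its letters only.

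Total counts per library ran from 24715999 to 56877328, and mitochondrially encoded genes took from 7.16% to 31.91% of the joined counts. Cell identity was read from marker lists. VIM, SPARC, COL1A1 and RUNX2, markers of mesenchymal and osteoblast cells, were at 21.6 CPM (read counts scaled to a common library size after TMM normalization) or more in every library, while COL1A2 and ALPL were low (0.198 to 9.04 and 0.168 to 8.19 CPM). The whole list of 7 summed to between 5589.4 and 13909.5 CPM. The T cell gene CD3E and the erythroid gene HBB were each at 0 in 14 of the 16 libraries, though LYZ, of the blood list, was detected in 12. The 6 blood markers summed to between 10.9 and 131.0 CPM in W329G 5-FU, 6.86 and 71.3 CPM in W329G DMSO, 7.95 and 109.0 CPM in WT 5-FU and 7.66 and 94.5 CPM in WT DMSO. The 6 epithelial markers summed to between 4.99 and 101.0 CPM and the 5 neural markers to between 7.92 and 43.1 CPM over the 16 libraries, and the ranges of the 4 groups overlapped in each list. The cell numbers went against their labels between the experiments: across genes, the difference between cells 1 and cells 2 in experiment 2 correlated negatively with that in experiment 1, with r of -0.569 under 5-FU and -0.485 under DMSO in W329G, and -0.302 and -0.189 in WT (16301 genes of the same libraries). Results that rest on sums per line are therefore given below also with the numbers exchanged in experiment 2. MDM2 itself was at 75.4 ± 19.5 CPM in W329G 5-FU, 73.0 ± 31.9 in W329G DMSO, 230.0 ± 42.8 in WT 5-FU and 61.1 ± 18.5 in WT DMSO (SD, n = 4 each), and counts summed over the gene cannot show whether the codon was changed.

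The first comparison asks how 5-FU changed each receptor gene within a genotype, and whether the change differed between genotypes. In W329G cells 0 of 9 genes passed the test, while in WT cells FAS, EDA2R and TNFRSF10B rose and the other 6 did not pass. In WT cells FAS was 5.06-fold, EDA2R 3.63-fold and TNFRSF10B 2.45-fold higher under 5-FU than under DMSO. Each of these 3 genes responded less in W329G than in WT cells, by a test of the difference itself. Calls are adjusted p under 0.05 by edgeR's quasi-likelihood test with Benjamini-Hochberg adjustment over 16301 genes, from 1 model of the 16 libraries in which experiment was a covariate. Over all genes that rule called 0.791% in either direction in W329G cells, 3.55% higher and 5.25% lower in WT cells (8.8% in all), and 1.21% for the difference, of which 0.509% with a lower response in W329G. In W329G cells the 5-FU and DMSO libraries overlapped in CPM for all 9 genes, against 4.2% of all genes without overlap. In WT cells those of FAS, EDA2R and TNFRSF10B did not overlap, 3 of 9 against 8.15% of all genes.

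**Figure D1:**
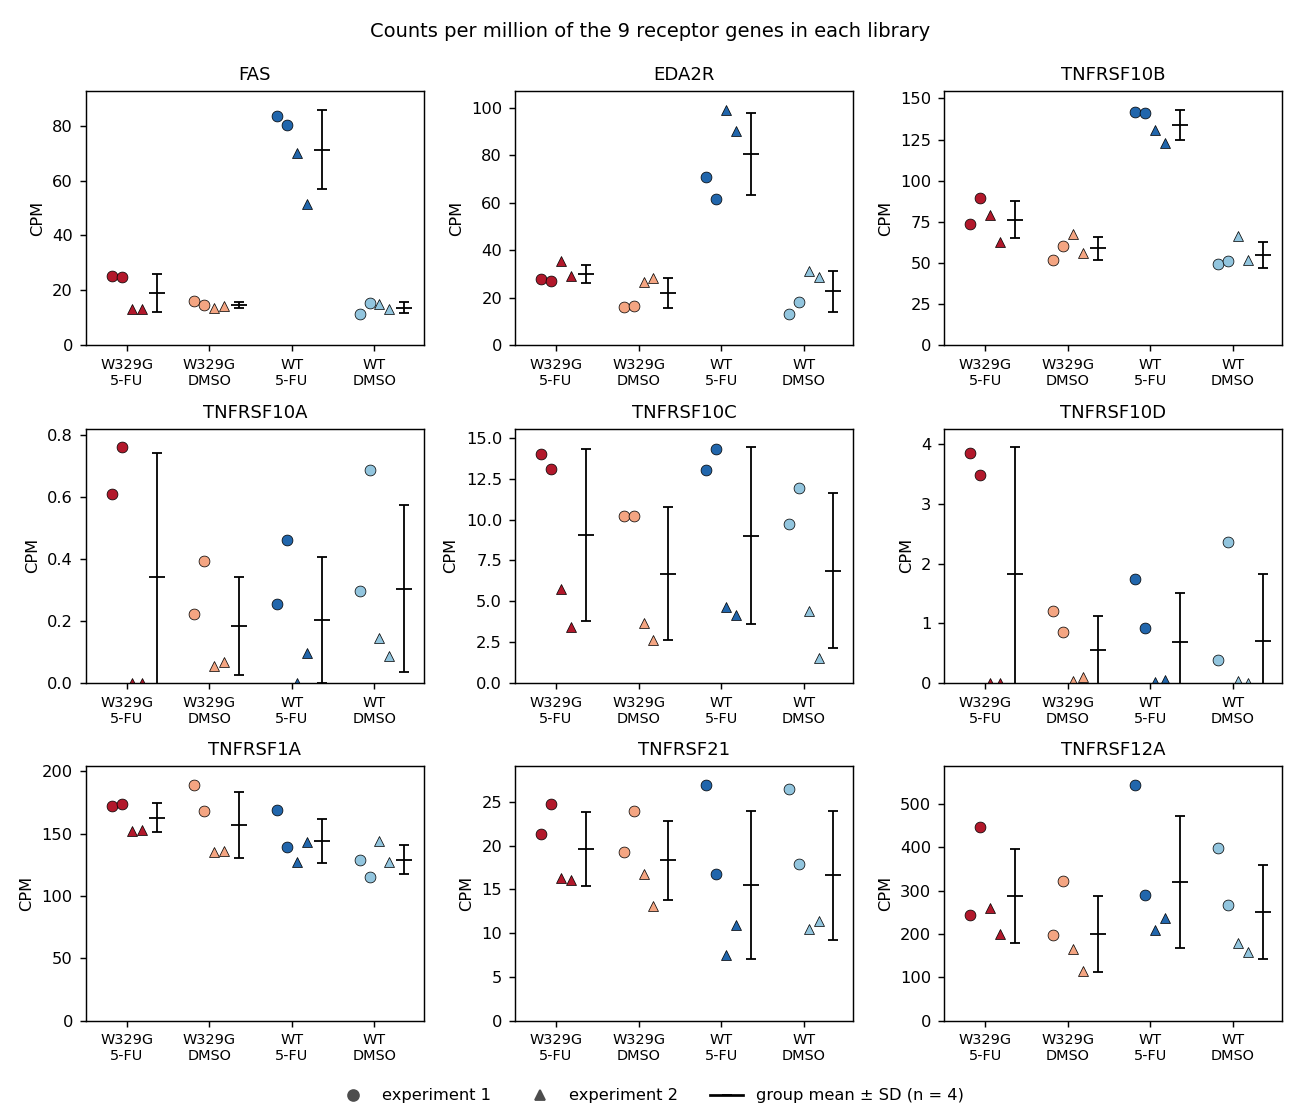
CPM (vertical axes, from 0) of the 9 receptor genes in each of the 16 libraries, by group; circles are experiment 1, triangles experiment 2, and bars give the mean ± SD of 4 libraries, cut off at 0. FAS, EDA2R and TNFRSF10B stand higher in all 4 WT 5-FU libraries than in any other library.

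FAS, the receptor for FAS ligand, was at 25.4, 24.7, 13.2 and 13.1 CPM in the W329G 5-FU libraries 1 to 4 and at 16, 14.8, 13.7 and 14.3 CPM in W329G DMSO. It was at 83.7, 80.2, 70.0 and 51.3 CPM in WT 5-FU and at 11.3, 15.3, 15.1 and 13.2 CPM in WT DMSO. All WT 5-FU libraries were above every other library, whereas the W329G 5-FU libraries were above their DMSO counterparts in experiment 1 and below them in experiment 2. The log2 change was 0.33 ± 0.18 (SE) in W329G cells (edgeR adjusted p = 0.468) and 2.34 ± 0.19 in WT cells (adjusted p = 4.58e-06). Their difference was -2.01 ± 0.26 (adjusted p = 0.00141). Within experiments the W329G change was 0.70 in experiment 1 and -0.10 in experiment 2, and the WT change 2.63 and 2.10. A test of the change between experiments, chosen after seeing the data, gave -0.79 ± 0.26 for W329G cells (unadjusted p = 0.0108, edgeR adjusted p = 1.0) and -0.53 ± 0.26 for WT cells (unadjusted p = 0.0665, edgeR adjusted p = 1.0). In bulk RNA, fewer responding cells and less RNA per cell cannot be told apart, here or for the genes below.

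Some exon bases of FAS are shared with ACTA2 on the opposite strand, 380 bases or 10.1% of its exons, and the sources used here do not say whether counting used strand. ACTA2 held 669 counts in experiment 1 in all, against 7310 for FAS.

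EDA2R, the receptor for ectodysplasin A2, also rose in WT cells and responded less in W329G cells, with a smaller WT change than FAS. In W329G cells it was higher under 5-FU in 4 of 4 pairs, against 2 of 4 for FAS. EDA2R levels were 28.0, 27.2, 35.5 and 29.2 CPM in W329G 5-FU and 16, 16.7, 26.7 and 28.1 CPM in W329G DMSO. WT 5-FU libraries held 70.6, 61.5, 99.1 and 90.3 CPM and WT DMSO libraries 13.1, 18.0, 31.2 and 28.6 CPM. Experiment 2 was the higher one in both genotypes under both treatments, and within each experiment the WT 5-FU libraries stood clear of the rest. Its log2 value was 0.51 ± 0.15 in W329G cells (edgeR adjusted p = 0.128), and it changed by 1.86 ± 0.15 in WT cells (adjusted p = 4.58e-06). The difference was -1.36 ± 0.21 (adjusted p = 0.00304).

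Among the TRAIL receptors, TNFRSF10B (DR5), a death receptor, was the member that rose in WT cells. It measured 73.7, 89.5, 79.3 and 62.7 CPM in W329G 5-FU, 51.7, 60.1, 67.8 and 56.0 CPM in W329G DMSO, 142.0, 141.0, 131.0 and 123.0 CPM in WT 5-FU and 49.6, 50.9, 66.4 and 51.9 CPM in WT DMSO. Its range in WT 5-FU was narrow and lay above all other libraries, and the 2 W329G ranges overlapped. The log2 change was 0.37 ± 0.13 in W329G cells (adjusted p = 0.227) and 1.30 ± 0.13 in WT cells (edgeR adjusted p = 2.55e-05). The difference, -0.92 ± 0.19 (adjusted p = 0.0208), lost its call when the pair of W329G replicate 1 or 3 or of WT replicate 1, 2 or 4 was left out, with adjusted p of 0.054, 0.0833, 0.122, 0.113 and 0.0557 and values between -0.98 and -0.85. It was also lost with sums per line (edgeR adjusted p = 0.0506), with no experiment term (0.102), with exchanged cell numbers (0.621) and with experiment 1 alone (0.285) or experiment 2 alone (1.0).

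**Figure D2:**
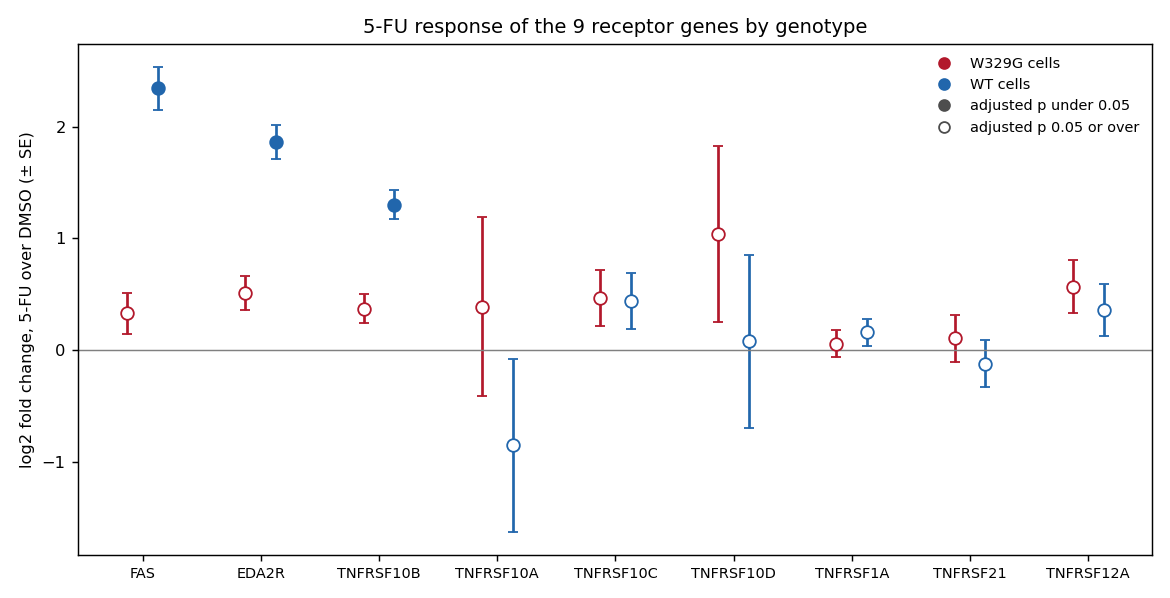
log2 fold change, 5-FU over DMSO, ± SE (vertical axis) of the 9 receptor genes in W329G cells (red) and WT cells (blue); filled points have an edgeR adjusted p under 0.05. FAS (2.34), EDA2R (1.86) and TNFRSF10B (1.30) in WT cells are the 3 filled points.

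TNFRSF10A (DR4), the other TRAIL death receptor, was barely detected. It had 24, 21, 0 and 0 counts in W329G 5-FU, 8, 11, 2 and 2 in W329G DMSO, 6, 11, 0 and 4 in WT 5-FU and 7, 22, 8 and 3 in WT DMSO. Its log2 change was 0.39 ± 0.80 (SE) in W329G cells (edgeR adjusted p = 0.897) and -0.85 ± 0.77 in WT cells (adjusted p = 0.585). With experiment 1 alone it was 1.15 in W329G cells and -0.47 in WT cells, also not called. At these counts a change of this gene was not resolved. A count of 0 allows up to 3 counts, which is 0.0629 to 0.0744 CPM in the 3 libraries at 0. Intervals and floors of this kind cover counting error only. TNFRSF10A also shares exon bases with its antisense and divergent neighbours (224 and 266 bases).

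Of the decoy receptors, TNFRSF10C was at 14.0, 13.1, 5.73 and 3.42 CPM in W329G 5-FU, 10.2, 10.2, 3.68 and 2.64 in W329G DMSO, 13, 14.3, 4.63 and 4.13 in WT 5-FU and 9.70, 11.9, 4.38 and 1.52 in WT DMSO. The value under 5-FU was above that of its DMSO partner in 8 of 8 pairs, but the libraries of experiment 1 were above those of experiment 2 in every group, and the test did not call it: 0.47 ± 0.25 in W329G (adjusted p = 0.459) and 0.44 ± 0.25 in WT (edgeR adjusted p = 0.334). TNFRSF10D had 152, 96, 0 and 0 counts in W329G 5-FU, 43, 24, 1 and 3 in W329G DMSO, 41, 22, 1 and 2 in WT 5-FU and 9, 76, 2 and 0 in WT DMSO. In experiment 2 the gene was at or under 3 counts in all 8 libraries, so its values come from experiment 1 alone. The log2 change of TNFRSF10D over both experiments was 1.04 ± 0.79 in W329G (edgeR adjusted p = 0.625) and 0.08 ± 0.77 in WT (adjusted p = 0.973). With experiment 1 alone it was 1.82 in W329G (adjusted p = 0.701) and -0.07 in WT (adjusted p = 0.986). The 4 TRAIL receptor genes are close copies of each other, and the sources used here do not state how reads matching more than 1 of them were counted.

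The decoys' share of TRAIL receptor transcripts, TNFRSF10C and TNFRSF10D as a part of the length-scaled sum of the 4 genes, averaged 19.5 ± 10.1% in W329G 5-FU, 18.4 ± 10.8% in W329G DMSO, 11.6 ± 6.06% in WT 5-FU and 19.7 ± 13.5% in WT DMSO (SD, n = 4 each; no test). Exon lengths of experiment 1 were used for both experiments and may not hold for experiment 2. The share split by experiment. In experiment 1 it was 30.7% and 25.3% in W329G 5-FU, 29.5% and 25.9% in W329G DMSO, 16.5% and 17.2% in WT 5-FU and 28.1% and 33.9% in WT DMSO. In experiment 2 it was 12.4% and 9.68% in W329G 5-FU, 9.67% and 8.69% in W329G DMSO, 6.50% and 6.24% in WT 5-FU and 11.5% and 5.42% in WT DMSO. The WT 5-FU libraries were lowest in experiment 1 and between the 2 WT DMSO libraries in experiment 2.

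TNFRSF12A, the TWEAK receptor, had the highest level of the 9 genes. Its level was 245.0, 447.0, 261.0 and 201.0 CPM in W329G 5-FU, 198.0, 322.0, 166.0 and 114.0 in W329G DMSO, 544.0, 291.0, 210.0 and 238.0 in WT 5-FU and 398.0, 267.0, 180.0 and 158.0 in WT DMSO. Libraries of a group were spread widely, so that the groups overlapped, yet within pairs the 5-FU library was the higher one in 8 of 8. Without pairing, TNFRSF12A was not called (0.57 ± 0.24 in W329G, adjusted p = 0.303, and 0.36 ± 0.23 in WT, edgeR adjusted p = 0.409).

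TNFRSF1A, the TNF receptor, and TNFRSF21 (DR6) did not pass in either genotype. TNFRSF1A was at 172.0, 174.0, 152.0 and 153.0 CPM in W329G 5-FU, 189.0, 168.0, 135.0 and 136.0 in W329G DMSO, 169.0, 139.0, 127.0 and 143.0 in WT 5-FU and 129.0, 115.0, 144.0 and 127.0 in WT DMSO, with log2 values of 0.06 ± 0.12 in W329G and 0.16 ± 0.12 in WT. TNFRSF21 was at 21.3, 24.8, 16.3 and 16.1 CPM in W329G 5-FU, 19.3, 23.9, 16.8 and 13.1 in W329G DMSO, 26.9, 16.8, 7.52 and 10.9 in WT 5-FU and 26.5, 17.9, 10.5 and 11.4 in WT DMSO, with log2 values of 0.11 ± 0.21 in W329G and -0.12 ± 0.21 in WT. The 4 ranges of TNFRSF21 overlapped with each other, and those of TNFRSF1A did so except for W329G 5-FU and WT DMSO. Within each genotype the 5-FU and DMSO ranges of both genes overlapped.

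Pairing the DMSO and 5-FU libraries of the same cell number and experiment narrowed the error. With these pairs as a replicate block, 3 of 9 genes rose in W329G cells: TNFRSF12A (edgeR adjusted p = 0.00592), TNFRSF10B (0.0412) and EDA2R (0.0421), at log2 changes of 0.56, 0.37 and 0.49. With sums per line 0 of 9 were called in W329G cells, at edgeR adjusted p of 0.218 for TNFRSF12A, 0.229 for TNFRSF10B and 0.135 for EDA2R. In that fit 4 of 9 were under an unadjusted p of 0.05, against 2703 of 17335 genes. The adjusted p of FAS in W329G cells was 0.243 under the block. In WT cells 4 of 9 rose under the block, the same 3 genes and TNFRSF12A (0.34, adjusted p = 0.0285), whose call was lost with sums per line (0.35, edgeR adjusted p = 0.198). That fit called more of all genes too, 11% in W329G cells (5.18% higher) and 24.9% in WT cells (11.7% higher). The difference between genotypes was called for the same 3 genes under the block, against 2.55% of all genes with a lower response in W329G. In the fit without pairs, 3 of 9 genes were under an unadjusted p of 0.05 in W329G cells, against 2144 of 16301 genes. DESeq2 called 1, EDA2R (adjusted p = 0.0298), against 576 of all genes.

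**Figure D3:**
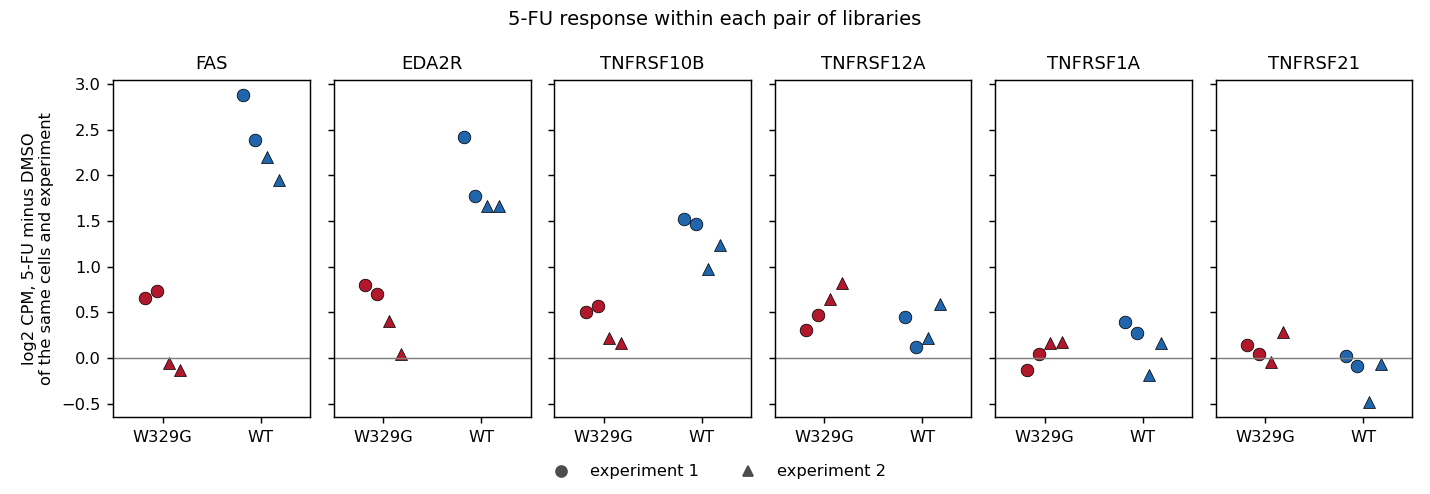
log2 CPM under 5-FU minus DMSO of the same cells and experiment (vertical axis) for 6 receptor genes, in the 4 W329G pairs (red) and the 4 WT pairs (blue); circles are experiment 1 and triangles experiment 2. For FAS the W329G pairs lie between -0.13 and 0.74 and the WT pairs between 1.95 and 2.88, and for TNFRSF12A the 2 genotypes overlap.

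The pairs show the spread behind these tests. For FAS the 4 W329G pairs gave 0.66, 0.74, -0.05 and -0.13 and the WT pairs 2.88, 2.39, 2.20 and 1.95. EDA2R gave 0.80, 0.70, 0.41 and 0.05 in W329G and 2.42, 1.77, 1.67 and 1.66 in WT. TNFRSF10B gave 0.51, 0.57, 0.22 and 0.16 in W329G and 1.52, 1.47, 0.98 and 1.24 in WT. For these 3 genes every W329G pair was below every WT pair. Both pairs of experiment 2 were below both pairs of experiment 1 in each genotype. The share of all genes with such separations of pairs was not counted. CDKN1A, which encodes p21 and served as a reference gene of the p53 response, gave 0.99, 0.49, 0.65 and 0.63 in W329G and 2.82, 2.66, 2.03 and 2.23 in WT.

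The second comparison sets the genotypes against each other under the same treatment, on 8 sums of counts per line over both experiments (17335 genes tested). Under 5-FU, FAS, EDA2R and TNFRSF10B were lower in W329G than in WT cells and TNFRSF21 was called higher. Under DMSO 0 of 9 genes passed the edgeR test (2 were under an unadjusted p of 0.05, and 0 by DESeq2). Of all 17335 genes, 3277 were under that unadjusted p there, and DESeq2 called 1271. Of all genes, 14.4% were called under 5-FU (7.3% higher and 7.15% lower in W329G) and 1.42% under DMSO. FAS, EDA2R and TNFRSF10B were also the 3 genes whose 5-FU libraries did not overlap between genotypes, against 11.2% of all genes, and under DMSO there were 0 of 9, against 3.33%. Both genotype comparisons use the 5-FU or DMSO libraries that also enter the responses above, so they are not independent of them.

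Under 5-FU, FAS averaged 19.1 ± 6.89 CPM in W329G cells and 71.3 ± 14.5 CPM in WT cells (SD, n = 4 each), a log2 difference of -1.90 ± 0.13 (SE; edgeR adjusted p = 0.000225). EDA2R averaged 30.0 ± 3.78 CPM in W329G and 80.4 ± 17.3 CPM in WT cells, a difference of -1.49 ± 0.12 (adjusted p = 0.000308). Both kept their call in 13 of 13 alternative fits, including the one with cell numbers exchanged (adjusted p = 0.0113 for FAS and 0.0150 for EDA2R), which called 0.687% of all genes lower. TNFRSF10B averaged 76.3 ± 11.2 CPM in W329G and 134.0 ± 9.11 CPM in WT cells. Its difference of -0.83 ± 0.12 (edgeR adjusted p = 0.00279) lost its call with exchanged numbers (-0.81, adjusted p = 0.0705) and with experiment 2 alone (-0.86, adjusted p = 0.152). The call was also lost without W329G cells 1 (-0.86) or W329G cells 2 (-0.79), fits that leave 1 W329G line.

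TNFRSF21 averaged 19.6 ± 4.22 CPM in W329G 5-FU and 15.5 ± 8.47 CPM in WT 5-FU. Its difference was 0.48 ± 0.12 (edgeR adjusted p = 0.0281), while the libraries of the 2 groups overlapped. Within experiment 1 the means were 23.1 CPM in W329G and 21.8 CPM in WT, a log2 difference of 0.08, and within experiment 2 they were 16.2 in W329G and 9.22 CPM in WT, a difference of 0.79. The call was lost with exchanged numbers (0.48, adjusted p = 0.387), with single libraries in place of sums (0.44, adjusted p = 0.188) and without W329G cells 1 (adjusted p = 0.238) or 2 (adjusted p = 0.273).

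The other 5 genes were not called under 5-FU. TNFRSF10C differed by 0.12 ± 0.19, TNFRSF12A by -0.10 ± 0.15 and TNFRSF1A by 0.19 ± 0.11. TNFRSF10D differed by 1.68 ± 0.75 (edgeR adjusted p = 0.171) and TNFRSF10A by 0.86 ± 0.61 (adjusted p = 0.392). Both are near the floor in experiment 2, as given above. With experiment 1 alone TNFRSF10D differed by 1.47 (adjusted p = 0.356) and TNFRSF10A by 0.93 (adjusted p = 0.515). Under DMSO the widest differences among well counted genes were those of TNFRSF21 (0.28 ± 0.12, edgeR adjusted p = 0.234) and TNFRSF1A (0.26 ± 0.11, adjusted p = 0.237). FAS differed by 0.06 ± 0.13, TNFRSF10B by 0.06 ± 0.12 and EDA2R by -0.16 ± 0.12 under DMSO. The exchanged sums called 0.0116% of all genes under DMSO and 0 of 9 here.

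Levels can be set against each other between genes only per length, as CPM per kilobase of exon. In W329G 5-FU the order was TNFRSF12A (156.0), TNFRSF1A (40.6), TNFRSF10B (14.8), EDA2R (8.38), TNFRSF21 (5.46), FAS (5.09), TNFRSF10C (3.45), TNFRSF10D (0.518) and TNFRSF10A (0.116). W329G DMSO had the same order, with TNFRSF12A at 108.0, TNFRSF10B at 11.4, EDA2R at 6.12 and FAS at 3.92. In WT 5-FU the order was TNFRSF12A (173.0), TNFRSF1A (36.0), TNFRSF10B (26.0), EDA2R (22.5), FAS (19.0), TNFRSF21 (4.32), TNFRSF10C (3.44), TNFRSF10D (0.193) and TNFRSF10A (0.0689). In WT DMSO it was TNFRSF12A (136.0), TNFRSF1A (32.1), TNFRSF10B (10.6), EDA2R (6.35), TNFRSF21 (4.61), FAS (3.66), TNFRSF10C (2.62), TNFRSF10D (0.197) and TNFRSF10A (0.103). FAS stood in place 5 in WT 5-FU and in place 6 in the other 3 groups, and the rest kept their order. The ranges of TNFRSF12A, TNFRSF1A and TNFRSF10B did not overlap with those of their neighbours, except for TNFRSF10B and EDA2R in WT 5-FU. EDA2R, TNFRSF21, FAS and TNFRSF10C overlapped with the next gene in W329G DMSO and WT DMSO, apart from TNFRSF10C in W329G DMSO, which stayed above TNFRSF10D.

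**Figure D4:**
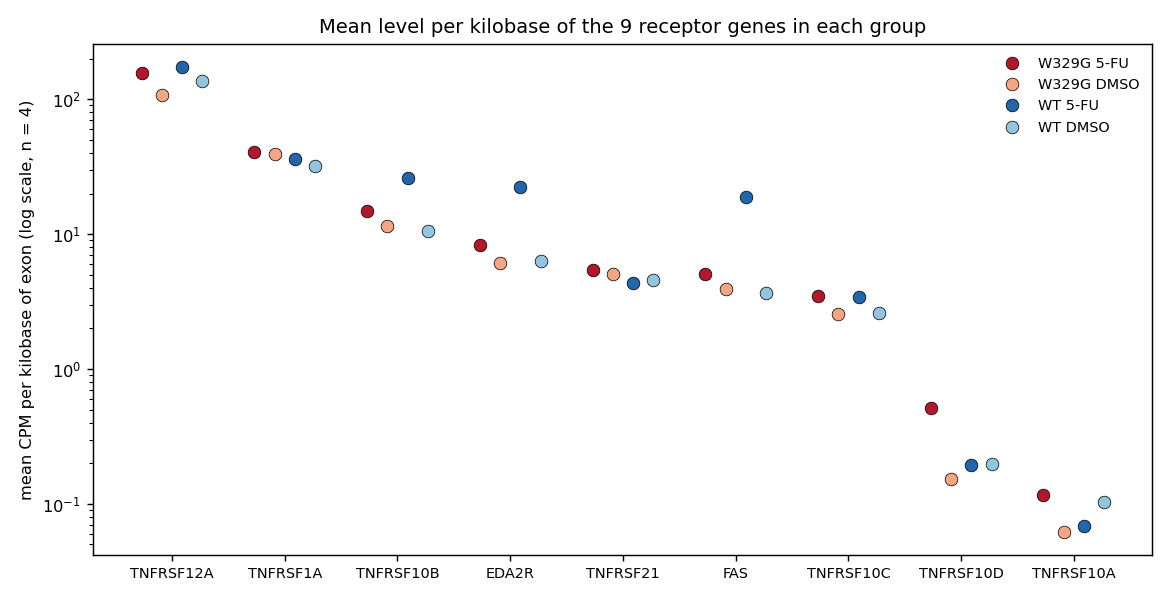
Mean level per kilobase of exon (vertical axis, log scale, n = 4) of the 9 receptor genes in W329G 5-FU, W329G DMSO, WT 5-FU and WT DMSO, genes ordered by their level in WT DMSO. In WT 5-FU, FAS, EDA2R and TNFRSF10B come within a narrow band of 19.0 to 26.0 CPM per kilobase.

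Across the 16 libraries, the genes whose log2 CPM ran most alike to FAS, after centring within each experiment and among 11271 genes of at least 5 CPM, were EDA2R (Pearson r = 0.989), the autophagy modulator DRAM1 (0.985), the antiproliferative gene BTG2 (0.984), CDKN1A (0.968) and CYFIP2 (0.967), a partner of the actin-regulating WAVE complex. For TNFRSF10B they were SUSD6 (0.970), EDA2R (0.968), FAS (0.952), the peptide transporter gene TAP1 (0.950) and the ephrin receptor gene EPHA2 (0.943). MDM2 stood at place 6 for FAS (r = 0.964) and at place 68 for TNFRSF10B (r = 0.871). The libraries share the genotype and treatment groups, so these coefficients describe the pattern and carry no test.

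Around the receptors, 5 lists of related genes were read from the same fits: 20 other receptors of the family, 18 ligands, 14 genes of death signalling, 25 of survival and NF-kB signalling and 6 that process receptors. In W329G cells 1 of 70 tested genes rose, against 0.791% of all genes called in either direction, and in WT cells 6 rose and 2 fell, against 8.8%. The response differed between genotypes for 0 of 70, against 1.21% (8 under an unadjusted p of 0.05 and 0 by DESeq2). Of all 16301 genes, 1549 were under that unadjusted p for the difference, and DESeq2 called 474. With pairs as a replicate block 11 rose and 2 fell in W329G cells, 17 rose and 11 fell in WT cells, and 7 responses differed. Of all 16301 genes, that fit called 11% in W329G cells, 24.9% in WT cells and 1006 genes for the difference. With sums per line 0 of 72 were called in W329G cells (16 under an unadjusted p of 0.05), 7 rose and 3 fell in WT cells, and 1 response differed. Of all 17335 genes, the sums called 73 in W329G cells (2703 under an unadjusted p of 0.05), 1648 in WT cells and 124 for the difference. With exchanged line sums, 0 of 70 were called in any of the 5 comparisons. Under an unadjusted p of 0.05 were 9 in the W329G response, 16 in the WT response, 3 in the difference, 4 under DMSO and 14 under 5-FU. Of all 17313 genes, 1182, 2340, 852, 1351 and 2788 were under it, in that order.

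**Figure D5:**
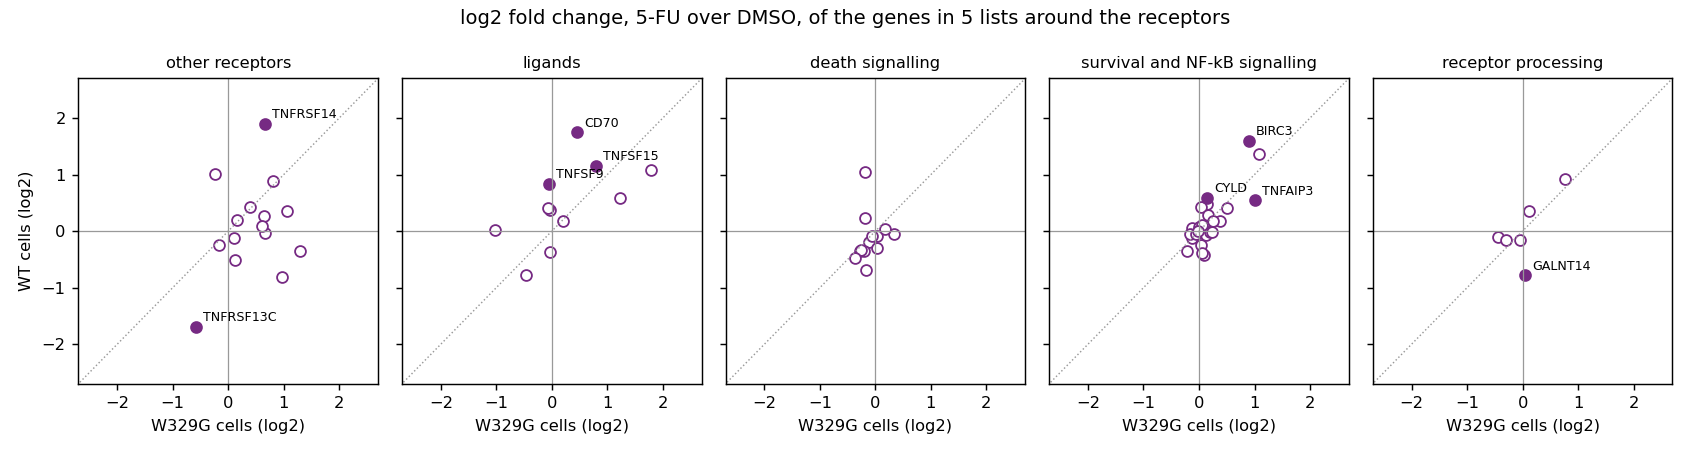
log2 fold change, 5-FU over DMSO, in W329G cells (horizontal axes) and WT cells (vertical axes) for the tested genes of the 5 lists; filled points passed an edgeR adjusted p of 0.05 in at least 1 genotype and the dotted line marks equal change. TNFRSF14, CD70 and BIRC3 lie above it, and TNFAIP3 below it.

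Among the other receptors, 0 of 15 passed the edgeR test in W329G cells (4 under an unadjusted p of 0.05, 1 by DESeq2), with a median log2 value of 0.61 against 0.02 for all genes. In WT cells 1 of 15 rose and 1 fell, with a median of 0.09 against 0.01 for all genes. That test called 0.791% of all genes in W329G cells and 8.8% in WT cells. For the W329G response 2144 of 16301 genes were under an unadjusted p of 0.05, and DESeq2 called 576. With pairs as a replicate block 7 rose and 1 fell in W329G cells, against 11% of all genes (5.18% higher). In WT cells 4 rose and 2 fell under the block, against 24.9% (11.7% higher). Its difference between genotypes was called for 2 receptors higher and 2 lower in W329G cells, against 1006 of 16301 genes. With sums per line 0 of 72 list genes were called in W329G cells. TNFRSF14, the receptor for LIGHT, was at 5.91 ± 3.07 CPM in W329G 5-FU, 3.78 ± 2.08 in W329G DMSO, 22.0 ± 11.2 in WT 5-FU and 5.71 ± 2.54 in WT DMSO, and changed by 1.90 ± 0.31 in WT cells (edgeR adjusted p = 0.00135). It shares 13.4% of its exon bases with an antisense transcript. TNFRSF13C, the BAFF receptor, changed by -1.69 ± 0.50 (adjusted p = 0.0472), a call lost with any WT pair left out or with that of W329G replicate 2 or 4 (adjusted p up to 0.51 over all alternatives).

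Of 11 tested ligand genes, 0 passed the edgeR test in W329G cells (3 under an unadjusted p of 0.05, 0 by DESeq2). In WT cells 3 rose. Of all 16301 genes, 0.791% were called in W329G cells (2144 under that unadjusted p, 576 by DESeq2) and 3.55% were called higher in WT cells. The median log2 value was -0.03 in W329G and 0.40 in WT cells, against 0.02 and 0.01 for all genes. CD70, the ligand of CD27, was at 24.0 ± 14.7 CPM in W329G 5-FU, 16.8 ± 9.41 in W329G DMSO, 99.2 ± 47.3 in WT 5-FU and 28.4 ± 17.0 in WT DMSO, and its change in WT cells was 1.75 ± 0.30 (edgeR adjusted p = 0.00176). TNFSF15, which encodes TL1A, changed by 1.16 ± 0.26 and TNFSF9, the ligand of 4-1BB, by 0.84 ± 0.20 in WT cells. The TNFSF15 call was lost without WT replicate 2 or 3 and the TNFSF9 call without WT replicate 4. The ligands of the death receptors were scarce: FASLG had 19 counts over all 16 libraries and was at 0 in 9 of them, and TNFSF10, which encodes TRAIL, averaged 0.550 ± 0.530 CPM in W329G 5-FU, 0.775 ± 0.610 in W329G DMSO, 0.718 ± 0.735 in WT 5-FU and 0.707 ± 0.707 in WT DMSO.

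Death signalling genes downstream of the receptors were not called for 5-FU in either genotype. By edgeR it was 0 of 13 in W329G cells (1 under an unadjusted p of 0.05, 0 by DESeq2, median -0.17). In WT cells it was also 0 of 13 (6 under an unadjusted p of 0.05, 0 by DESeq2, median -0.20). Of all 16301 genes, edgeR called 0.791% in W329G cells (2144 under that unadjusted p, 576 by DESeq2, median 0.02). In WT cells edgeR called 8.8% of them (3623 under that unadjusted p, 2094 by DESeq2, median 0.01). The adaptor gene FADD stood at 22.5 ± 1.22 CPM in W329G 5-FU, 22.3 ± 3.58 in W329G DMSO, 22.9 ± 3.91 in WT 5-FU and 24.6 ± 4.97 in WT DMSO. CASP8, which encodes caspase-8, stood at 39.2 ± 4.49 CPM in W329G 5-FU, 42.9 ± 15.0 in W329G DMSO, 39.5 ± 2.18 in WT 5-FU and 45.8 ± 8.56 in WT DMSO. Under the replicate block 6 of 13 fell and 1 rose in WT cells, where that fit called 24.9% of all genes, with 11.7% higher. Among the 13, BID, FAIM, FAF1 and CASP6 were called lower and CASP10 was called higher.

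Of 25 survival and NF-kB genes 1 rose in W329G cells (median of the list 0.13 against 0.02 for all genes). In WT cells 2 rose (median 0.05 against 0.01). Of all genes, 0.791% were called in W329G cells in either direction and 3.55% were called higher in WT cells. TNFAIP3, which encodes the NF-kB inhibitor A20, was the 1 list gene that rose in W329G cells, at 5.04 ± 1.95 CPM under 5-FU and 2.42 ± 0.565 CPM under DMSO (1.01 ± 0.21, edgeR adjusted p = 0.0397). That call was lost without any W329G pair and without WT replicate 1 or 2. Its WT value was 0.55 ± 0.21 and the difference between genotypes 0.46 ± 0.30 (adjusted p = 0.768). In WT cells the inhibitor of apoptosis gene BIRC3 changed by 1.60 ± 0.35 (edgeR adjusted p = 0.0100) and the deubiquitinase gene CYLD by 0.59 ± 0.13 (adjusted p = 0.0115). Both calls were lost without WT replicate 1 or 2. GALNT14, a glycosyltransferase gene tied to TRAIL receptor glycosylation, fell in WT cells by 0.78 on the log2 scale (SE 0.19, edgeR adjusted p = 0.0144). It was 1 of 6 receptor processing genes, against 5.25% of all genes called lower, and lost the call without WT replicate 3 or 4.

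Between genotypes under 5-FU, 16 of 72 list genes were called, 9 higher and 7 lower in W329G cells, against 14.4% of all genes called, 7.3% higher and 7.15% lower. The receptors TNFRSF14 (-2.07 ± 0.29), TNFRSF11B (-1.90 ± 0.52) and NGFR (-0.89 ± 0.20) were lower and TNFRSF8 (1.60 ± 0.30) and TNFRSF9 (0.97 ± 0.27) higher. Both called ligands, CD70 (-2 ± 0.14) and TNFSF9 (-1.18 ± 0.14), were lower. Of the death signalling genes, BID (0.82 ± 0.16), whose product links caspase-8 to mitochondria, was higher, and CFLAR (-0.37 ± 0.10), which encodes the caspase-8 inhibitor FLIP, was lower. Of the signalling genes, TRAF2 (0.68 ± 0.18), CHUK (0.46 ± 0.12) and EDARADD (1.16 ± 0.29) were higher and CYLD (-0.48 ± 0.12) lower. EDARADD shares 35.0% of its exon bases with a pseudogene of ENO1, so its counts are uncertain. GALNT14 (0.81 ± 0.16) and the phosphatase gene PTPN13 (0.65 ± 0.18), whose product binds FAS, were higher. With W329G cells 1 left out CD70 and TNFRSF14 kept their calls, with W329G cells 2 left out CD70 alone, and the other 14 lost theirs in both fits. Without WT cells 1 the calls of CHUK, EDARADD and PTPN13 were lost and without WT cells 2 those of CFLAR, CYLD and EDARADD. Under DMSO the 1 call of 72 was CD70 (-0.77 ± 0.14, edgeR adjusted p = 0.0372), which was lost without W329G cells 1 or 2.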

How the data were processed

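Messenger RNA was measured by poly-A RNA-seq in 16 libraries: 2 genotypes, 2 treatments, 2 lines per genotype and 2 experiments. The authors deposited whole-number read counts per gene, with gene lengths in experiment 1. Per the submitters' processing notes the build was hg19, but the deposited coordinates of experiment 1 equal GENCODE 29 (GRCh38) for 96.3% of 56898 genes and are given as such. No aligner, counter or use of strand is stated in the sources used here. Experiment 2 lists symbols alone, so the tables were joined by symbol: 28443 genes of 57500 and 28890, holding 97.64 to 98.63% of counts, with 63 ambiguous symbols left out. Counts of experiment 2 with 7 or more digits all end in 0 (26 of 26), so they appear rounded.

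Counts were fitted with edgeR 4.0.16 (TMM scaling, filterByExpr, quasi-likelihood F test, Benjamini-Hochberg over all genes tested, threshold 0.05) in R 4.3.3 with limma 3.58.1. The 5-FU responses and their difference used 16 libraries with a term for experiment, and the genotype comparisons used 8 sums per line. SEs are the size of the log2 change divided by the root of F. Alternatives included DESeq2 1.42.0. Levels are CPM, the joined counts scaled to a common library size after TMM normalization, and levels per kilobase use the exon length of experiment 1. Tables and plots were made with Python 3.11.15, pandas 2.3.3 and matplotlib 3.10.9.

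DMSO and 5-FU libraries of the same cell number and experiment come from the same line, and across genes the deviations of such pairs from their group correlated (r of 0.708 and 0.633 in W329G, 0.487 and 0.595 in WT), so these pairs form the replicate block. The 2 libraries of each group and experiment differed by more than sampling noise (chi-square per degree of freedom of 60.2 to 183). Because each genotype has 2 lines, p-values over libraries measure the spread between these libraries and lines. The named genes are the 9 receptors, the list genes that passed, MDM2 and CDKN1A, and the 5 genes most alike to FAS and to TNFRSF10B. The receptors and lists were chosen with earlier results of these data known. Precision is limited by depth for genes of a few counts. A few genes of the lists are not reported here by name.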

Additional observations from a re-analysis of the deposited data

Results flagged for a closer look

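The response to 5-FU differed between the genotypes for 3 of the 9 receptor genes by the interaction test in edgeR. Of all genes it called 1.21%, of which 0.509% with a lower response in W329G. W329G minus WT was -2.01 for FAS, -1.36 for EDA2R and -0.92 for TNFRSF10B on the log2 scale.

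TNFRSF10B in WT DMSO replicate 3, at 66.4 CPM, stood apart from the other 3 libraries of its group by Dixon's criterion. TNFRSF10D in WT DMSO replicate 2, at 2.37 CPM, did so as well. Among 36 checks over 9 genes and 4 groups, chance would give about 1 in 20.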

How the results depend on the processing

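Over the 18 alternatives, the WT responses of FAS, EDA2R and TNFRSF10B kept direction, with log2 values of 2.10 to 2.63, 1.67 to 2.08 and 1.1 to 1.5, and lost their call with experiment 2 alone (edgeR adjusted p of 0.0554, 0.0554 and 0.156). The difference between genotypes kept its call in 15 of 18 alternatives for FAS (-2.20 to -1.87), 14 for EDA2R (-1.47 to -1.20) and 8 for TNFRSF10B (-1.04 to -0.85). FAS and EDA2R lost it with experiment 1 alone (edgeR adjusted p of 0.152 and 0.237), experiment 2 alone (0.367 and 0.696) and exchanged cell numbers (0.149 and 0.206). EDA2R lost it also with no experiment term (0.379), and TNFRSF10B in the fits named above. The fits of a single experiment hold fewer samples, and the cause of the lost calls was not tested.

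With the pairs as a replicate block 1798 genes were called for the W329G response (129 without it), 4054 for the WT response (1434) and 1006 for the difference (198); single libraries with the block gave 550 under DMSO. Among the receptors the block changed only the W329G calls and TNFRSF12A in WT cells, as given above. Experiment 1 alone called 0 genes for the W329G response (1101 under an unadjusted p of 0.05), 204 for the WT response, 0 for the difference (811), 0 between genotypes under DMSO (799) and 419 under 5-FU. In that order, experiment 2 alone called 0 (878), 0 (1746), 0 (634), 4 and 30. With no experiment term 13, 399 and 20 were called for the first 3. Exchanged line sums called 0 (1182), 102, 0 (852), 2 and 221, and sums per line 73 and 124 for the W329G response and the difference. DESeq2 called 576 for the W329G response, 474 for the difference and 1271 under DMSO (246 with edgeR), where no filter gave 892 and single libraries 151. Leaving out 1 pair gave 11 to 162, 662 to 1381 and 85 to 204 calls, and leaving out 1 line 1 to 2288 under DMSO and 180 to 2951 under 5-FU; the line left alone is then assumed to vary like the other groups.

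Changes of sign occurred among uncalled values. In W329G responses FAS took -0.10 with experiment 2, TNFRSF1A -0.05 with experiment 1 and TNFRSF10A -0.12 to 0.76 over left-out pairs. In WT responses TNFRSF10D took -0.07 with experiment 1, -0.04 with no experiment term, -0.36 with line sums, -0.12 with exchanged sums and -0.69 to 1.68 over left-out pairs, and TNFRSF1A -0.002 with experiment 2. In the difference TNFRSF10C took -0.04 under the block, -0.05 with experiment 2 and -0.15 to 0.22 over left-out pairs, TNFRSF1A 0.17 with experiment 2 and TNFRSF10D -0.66 to 1.74 over left-out pairs. Under DMSO FAS took -0.02 and TNFRSF1A -0.004 with experiment 2, TNFRSF10C -0.07, EDA2R 0.08 and TNFRSF21 -0.02 with experiment 1, TNFRSF10C -0.0019 with single libraries and TNFRSF10D 0.01 with exchanged sums. Over left-out lines TNFRSF10C ran from -0.01 to 0.15, TNFRSF10D from -1.09 to 1.90 and TNFRSF10B from -0.07 to 0.20. Under 5-FU TNFRSF10C took -0.01 with experiment 1, -0.0047 with single libraries under the block and -0.14 to 0.35 over left-out lines, and TNFRSF12A 0.03 with experiment 2 and -0.24 to 0.08 over left-out lines. The cause was not tested. TNFRSF10A and TNFRSF10D had too few counts in experiment 2 for a fit of it alone, for a reason that was not tested. Total counts ran from 24715999 to 34574157 in experiment 1 and from 31679913 to 56877328 in experiment 2.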
